A study of Mus musculus and Mus spretus with 72 samples.

Results

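Expression of 7 hypothalamic neuropeptide genes was followed in the brains of 5 groups of mice. The genes were galanin (Gal), growth hormone-releasing hormone (Ghrh), hypocretin (Hcrt), oxytocin (Oxt), pro-melanin-concentrating hormone (Pmch), tachykinin 1 (Tac1) and thyrotropin-releasing hormone (Trh). They were chosen by name, and they are 7 of the 14386 genes named on the array. Oxt was represented by 2 probes and each of the other genes by 1, which gave 8 probes. Each array set RNA from the brain of 1 male against a pool of brain RNA from 9 mice of the laboratory strain C57BL6. All mice were about 12 weeks old. The groups were Mus musculus domesticus (dom, 6 arrays), M. m. musculus (mus, 6 arrays), M. m. castaneus (cas, 3 arrays), M. musculus of a sub-species that the labels leave unnamed (ssp, 6 arrays) and M. spretus (spretus, 3 arrays). The first 4 are called the musculus groups. The labels give neither the strain nor the place of origin of the animals, and nothing says how the whole brain was dissected. Arrays of liver/kidney and testis from the same design are used below only to describe how the probes behaved.

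Neuropeptides are made as precursor proteins, cut by proteases inside dense-core granules and released from neurons as hormones or transmitters. Several of the genes studied here are expressed in small, scattered clusters of hypothalamic neurons, so that in whole brain RNA they come from a minor share of the cells. Ghrh neurons of the arcuate nucleus release their peptide into the portal blood of the pituitary, where it drives the release of growth hormone. Trh neurons of the paraventricular nucleus act in the same way on thyroid-stimulating hormone. Oxytocin is released from the posterior pituitary and acts in birth, lactation and social behaviour. Hypocretin and melanin-concentrating hormone come from separate neurons of the lateral hypothalamus and act in wakefulness, sleep and feeding. Galanin and the tachykinins, substance P among them, are also made by many neurons outside the hypothalamus.

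The values are the deposited log ratios of sample over pool, taken as log2, with spots of a probe averaged and each array centred on its median. A value of 0 therefore means the level of the pool on that array, and levels cannot be compared between genes. For the same reason the tissue label cannot be checked against marker genes by level. The direction of the ratio is likely sample over pool, since channel 2 holds the sample on every array, but it is not stated. All signs below would turn if it were inverted. Over all 20621 probes tested in brain, the median SD within groups was 0.17 on the log2 scale. The duplicate spots of a probe correlated over the brain arrays with a median r of 0.433, with quartiles of 0.209 and 0.643. Correlations between brain arrays over all probes lay between -0.145 and 0.395.

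The brain arrays fell into 3 sets by the spots that lacked a value. Patterns of missing spots correlated with a median r of 0.607 between arrays of a set (0.44 to 0.74) and of 0.0181 between arrays of different sets (-0.0252 to 0.205). Set 1 held all 6 dom, 4 mus and 3 ssp arrays, set 2 held 2 cas, 2 mus, 3 ssp and 3 spretus arrays, and set 3 held cas 3 alone. The sets are not given in the labels. Dom was in set 1 only and spretus in set 2 only, so no set held both of them. Array 8 of mus carries a title that names mus and a channel label that names domesticus. It was kept in mus, and leaving it out changed no call for any of the 8 probes in the 4 contrasts described below, the F test and the test against the pool, nor for Ghrh in spretus minus cas. The other pairs of groups were not fitted without it.

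The probes differed in how well their 2 spots reproduced each other. Over brain arrays the duplicate spots correlated with r = 0.78 for Oxt, 0.578 for Ghrh, 0.565 for Hcrt, 0.44 for the second Oxt probe and 0.28 for Trh. For Gal the correlation was 0.045, for Tac1 -0.20 and for Pmch -0.289, all in the lowest 12.4% of probes tested. The Gal value rests on 1 array, since without cas 3 it was 0.621. For Tac1 and Pmch it stayed negative without any single array, from -0.275 to -0.106 and from -0.446 to -0.103. Without cas 3 it was 0.409 for Ghrh, 0.439 for Trh and 0.686 for the second Oxt probe. The spread within brain groups was 0.28 for Oxt, larger than in 88.3% of all probes, and 0.24 for Hcrt, larger than in 80.3%. Gal (0.21) and Ghrh (0.18) exceeded 69.1% and 54.1% of probes, and Trh (0.12) 13.4%. The spread was 0.09 for Pmch and 0.08 for Tac1, larger than in only 1.21% and 0.572% of probes. Thus the Pmch and Tac1 probes varied less between animals than nearly all other probes, and what variation they had did not repeat between their spots.

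**Figure D1:**
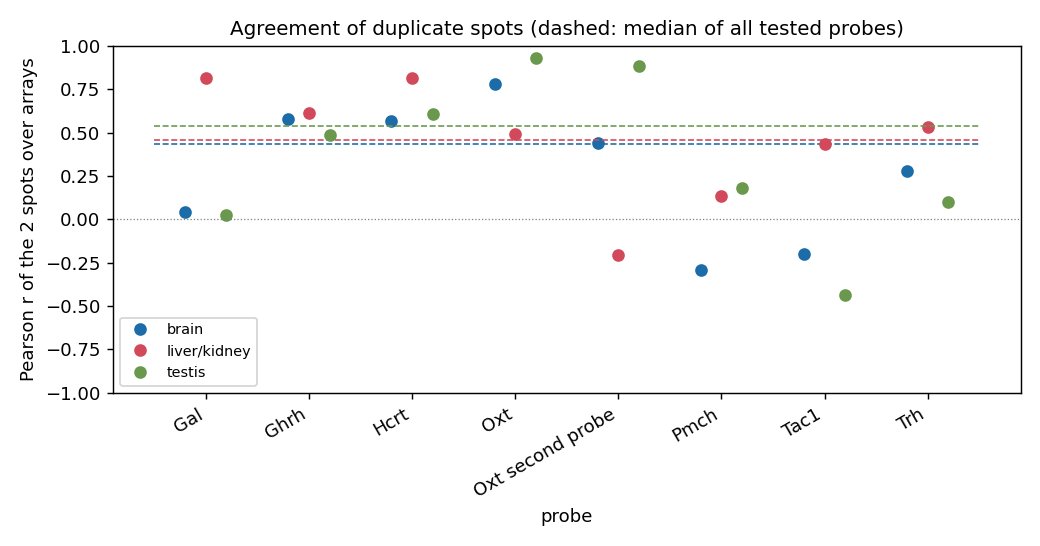
Pearson correlation of the 2 spots of each neuropeptide probe over the arrays of brain, liver/kidney and testis, with a dashed line per tissue at the median of all tested probes. In brain, Oxt (0.78), Ghrh (0.578), Hcrt (0.565) and the second Oxt probe (0.44) lie above the median of 0.433, while Gal, Tac1, Pmch and Trh lie below it. Without array cas 3 the brain value of Gal is 0.621.

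Agreement of the spots depended on the tissue. The Gal spots, at 0.045 in brain, correlated with r = 0.814 in liver/kidney and 0.023 in testis. Hcrt gave 0.818 in liver/kidney and 0.606 in testis, and Oxt gave 0.493 and 0.932. Pmch stayed low in both, with 0.134 in liver/kidney and 0.179 in testis. Tac1 gave 0.43 in liver/kidney and -0.438 in testis. Trh, at 0.28 in brain, gave 0.53 and 0.10. These values describe the probes, and differences between tissues were not tested.

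Ghrh was the member that differed between the brain groups, and cas was the group that stood apart. In the 3 cas brains the Ghrh ratio was -0.30, -0.10 and -0.56, all below the pool. In the 3 spretus brains it was 0.23, 0.42 and 0.54. The 6 dom brains ranged from 0.26 to 0.41 with a median of 0.35, and the 6 ssp brains from 0.03 to 0.37 with a median of 0.32. Every dom, ssp and spretus array lay above every cas array. Here and below, the share of all probes whose groups do not overlap was not counted, so such separation is description only. The mus brains spread widely, from -0.36 to 0.32 with a median of 0.24, and overlapped cas. Array mus 3 was at -0.36 and mus 8, the array of conflicting labels, at -0.02, while the other 4 lay between 0.20 and 0.32. The group means ran from spretus (0.39 ± 0.16, SD, n = 3) over dom (0.34 ± 0.06, n = 6), ssp (0.27 ± 0.13, n = 6) and mus (0.12 ± 0.26, n = 6) to cas (-0.32 ± 0.23, n = 3). In whole brain RNA, fewer cells of a type and less RNA per cell cannot be told apart.

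**Figure D2:**
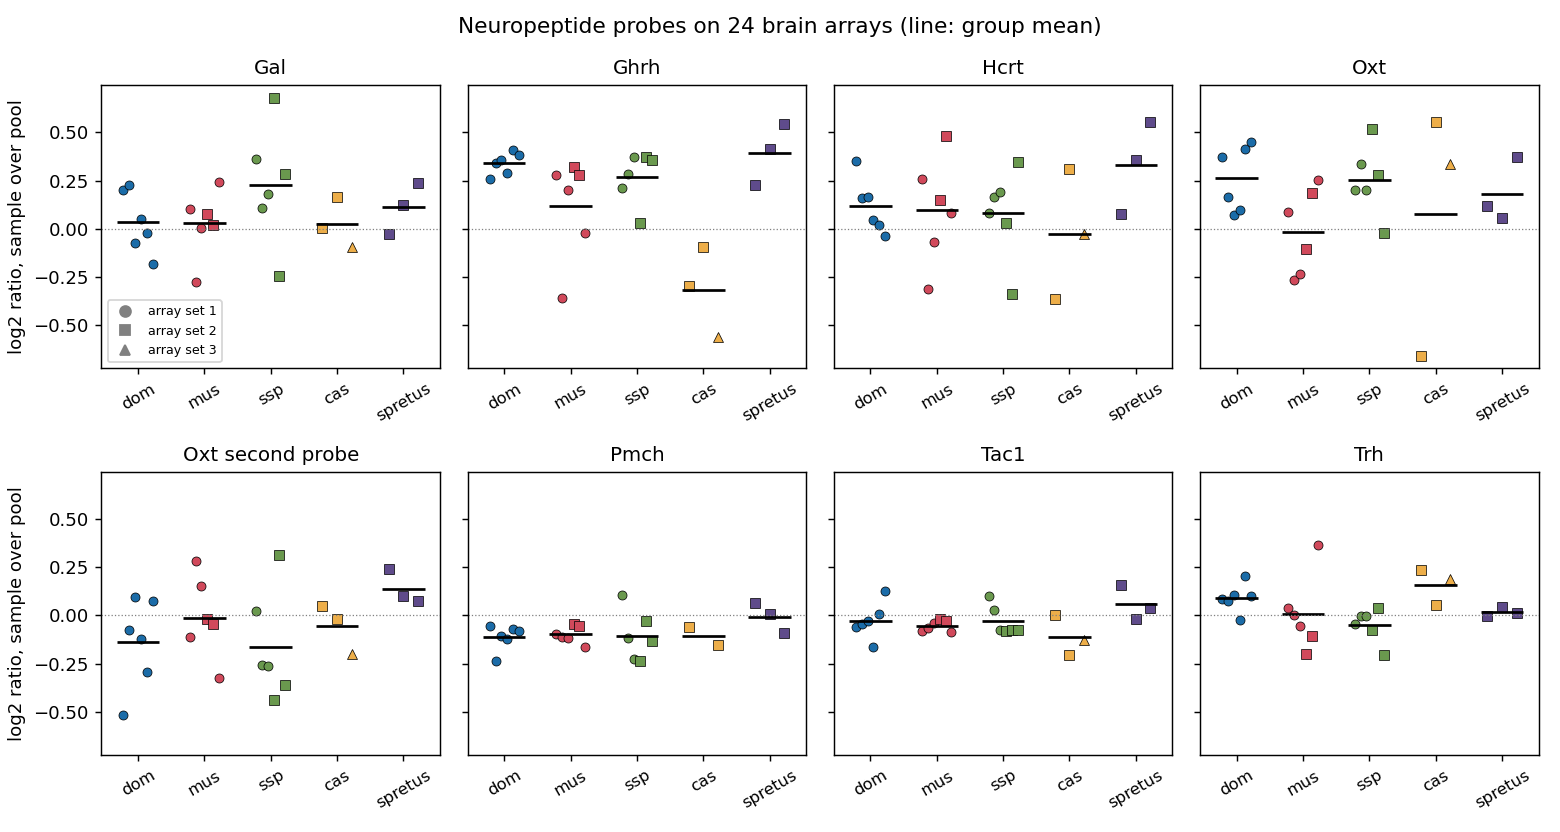
Log2 ratio of sample over pool for the 8 neuropeptide probes on the 24 brain arrays, by group. Each point is 1 array, its shape gives the array set, and the line is the group mean. For Ghrh the 3 cas arrays lie at -0.56, -0.30 and -0.10, below all dom, ssp and spretus arrays. For Hcrt, Gal, Pmch and the first Oxt probe all pairs of groups overlap.

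The moderated F test of limma among the 5 groups gave F = 8.92 for Ghrh, with an adjusted p of 0.0149 over all probes. Among all probes 3.28% passed this test, and Ghrh ranked 194 of 20621 by p. It was the only member to pass, 1 of 7. The adjusted p of the other genes ran from 0.411 for Trh to 0.793 for Pmch. Without cas, the F test of Ghrh among the other 4 groups gave F = 2.58 with an adjusted p of 0.248. The call rests on array cas 3 as well: without it the adjusted p was 0.0575, whereas it stayed between 0.0047 and 0.0351 when any other single array was left out. With the array set as a term in the fit, which also leaves cas 3 out because it is alone in its set, the adjusted p was 0.049. The first spot alone gave 0.138 and the second spot alone 0.0546.

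Neighbours in the order of the Ghrh means did not pass as pairs. Spretus exceeded dom by 0.06 ± 0.12 (SE, limma, adjusted p = 0.911), ssp minus dom was -0.07 ± 0.10 (adjusted p = 0.839), and ssp minus mus was 0.15 ± 0.10 (adjusted p = 0.587). Cas minus mus was -0.43 ± 0.12 (adjusted p = 0.232). Of all 10 pairs of groups, spretus minus cas alone passed. Ghrh was 0.71 ± 0.14 higher in spretus on the log2 scale, with a 95% interval of 0.42 to 1.01 and an adjusted p of 0.013. Ssp minus cas was 0.59 ± 0.12 (adjusted p = 0.0528) and cas minus dom -0.66 ± 0.12 (adjusted p = 0.103). The cas minus dom difference ranked 3 of all probes by p although no probe passed in that pair, where 2267 of 20621 had an unadjusted p under 0.05.

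The difference between spretus and cas lost its call within array set 2. There, with 3 spretus and 2 cas arrays, it was 0.59 ± 0.14 with an adjusted p of 0.252. It also lost the call without cas 3 (0.59, adjusted p = 0.0557), without spretus 2 (0.70, adjusted p = 0.0508), without spretus 3 (0.64, adjusted p = 0.0767), on the first spot alone (0.53, adjusted p = 0.177) and when only the 6 arrays of these groups were fitted (0.71, adjusted p = 0.345). With the array set as a term it was 0.59 (adjusted p = 0.0513). Set 3 holds cas 3 alone, so the set term and the fit within set 2 both leave that array out of the difference. They give the same estimate as the run without cas 3 and are not separate checks. The direction was the same each time.

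The shares of all probes that passed give the background for these pairs. It was 0% for cas minus dom, 0.0097% for cas minus mus, 0.131% for ssp minus cas and 1.17% for spretus minus cas. For the pairs without cas it was 0.141% for ssp minus dom, 0.0824% for ssp minus mus, 1.4% for spretus minus dom, 4.96% for spretus minus mus and 5.39% for spretus minus ssp. Apart from Ghrh in spretus minus cas, no member passed in any of them. An unadjusted p under 0.05 was reached in 6 of 63 tests of members in these 9 pairs, 5 of them for Ghrh, and in 14.9% of the tests of all probes.

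The low Ghrh values in cas appeared on both spots of the probe in cas 3 and mainly on the second in cas 2. Array cas 2 gave -0.0021 and -0.19 and cas 3 gave -0.26 and -0.86, while cas 1 had a value on its first spot only, -0.30. Array mus 3, the low mus array, gave -0.33 and -0.39. The widest gap in dom was on dom 5, at 0.77 and -0.06. In spretus all 6 spots lay above 0, from 0.17 to 0.55.

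**Figure D3:**
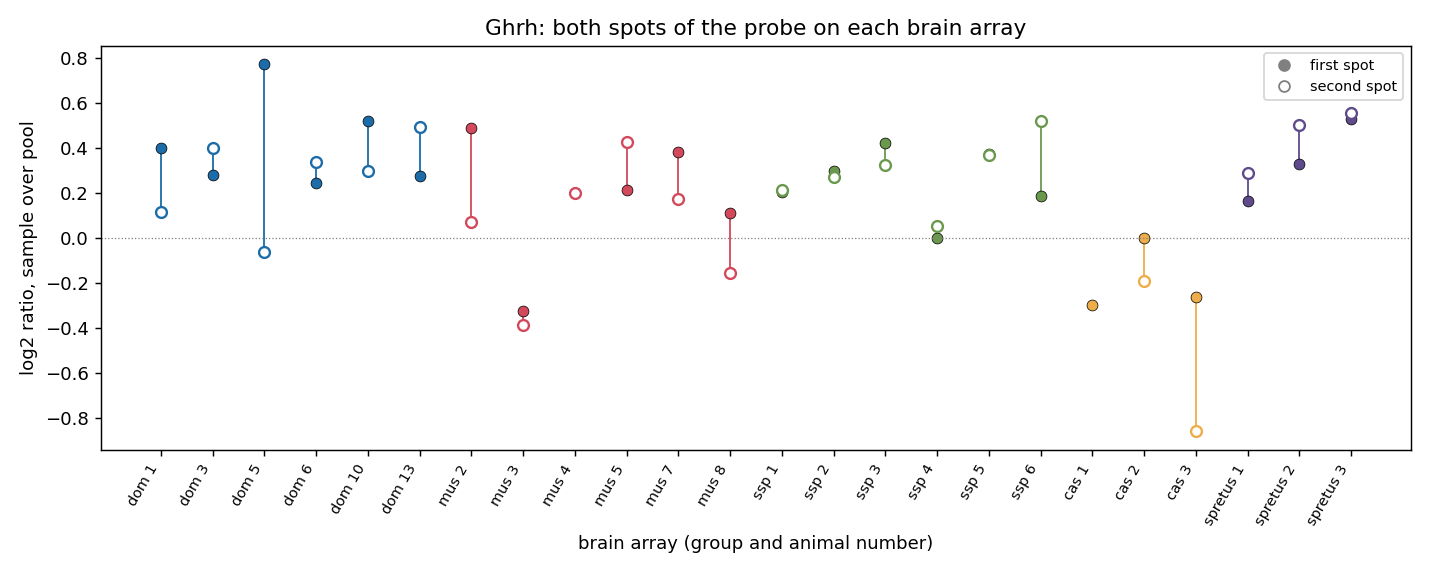
Both spots of the Ghrh probe on each of the 24 brain arrays, as log2 ratio of sample over pool, with a line joining the spots of an array. The spots of cas 2 and cas 3 lie below 0, from -0.86 to -0.0021, and those of spretus between 0.17 and 0.55. Arrays cas 1 and mus 4 have a value on 1 spot only.

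Besides the pairs, 4 contrasts were drawn. They took mus against dom, cas against dom and mus averaged, ssp against the average of dom, mus and cas, and spretus against the average of the 4 musculus groups. Ghrh came closest to the threshold for cas. Its difference from the average of dom and mus was -0.55 ± 0.11 (95% interval -0.78 to -0.31, adjusted p = 0.057), which ranked 24 of 20621 probes. In this contrast 0.0097% of all probes passed, and no member did. The call was gained without mus 3 (-0.59, adjusted p = 0.0302), without cas 1 (-0.56, adjusted p = 0.0424) or without cas 2 (-0.66, adjusted p = 0.0102). Without cas 1 the unadjusted p from limma was larger than in the full fit, at 0.000476 against 6.63e-05. The adjusted p depends on all probes, of which 0 to 946 passed in runs without 1 array, against 2 in the full fit. Over these runs the difference lay between -0.66 without cas 2 and -0.43 without cas 3, and limma's adjusted p reached 0.388. Within array set 2, with 2 arrays of each group, cas minus mus was -0.50 ± 0.16 (adjusted p = 1).

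The mean of the other neuropeptide probes gives a frame for the cas brains. Averaged over the list of other hypothalamic neuropeptides, the cas arrays stood at -0.20, -0.01 and 0.10, against -0.11 to 0.06 in dom and 0.03 to 0.12 in mus. For hypothalamic transcription factors and enzymes the cas arrays stood at -0.07, -0.06 and 0.11, against -0.05 to 0.05 in dom and 0.03 to 0.09 in mus. Pituitary markers were at -0.06, -0.05 and 0.09 in cas, against -0.03 to 0.03 in dom. The lowest cas array was below every dom and mus array in each of these lists, and the highest cas array was above every dom array. The lowest cas array was also below every dom and mus array for glia, cerebellar, choroid plexus and blood markers, receptors and peptide processing. It was not for neuron, striatal, cortex and hippocampus, or thalamus, midbrain and hindbrain markers. The cas arrays thus scattered widely, and not in hypothalamic lists alone. The part of this scatter in the Ghrh result was not tested.

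Outside the brain the Ghrh probe showed another order of groups. In liver/kidney the ratio was highest in cas (0.42 ± 0.23, n = 3), ssp (0.39 ± 0.28, n = 6) and spretus (0.34 ± 0.14, n = 3), and near 0 in dom (0.02 ± 0.09, n = 6) and mus (0.05 ± 0.12, n = 6). All 3 cas arrays were above 0 there, from 0.28 to 0.69, while all 3 were below 0 in brain. In testis cas averaged -0.07 ± 0.14 and dom 0.28 ± 0.23, and ssp ranged from -0.90 to 0.28. These tissues were described and not tested.

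Trh, the other releasing hormone among the members, varied little. The cas brains were at 0.23, 0.05 and 0.19, and the spretus brains at -0.01, 0.04 and 0.01. Dom ranged from -0.03 to 0.20 (median 0.09), mus from -0.20 to 0.37 (median -0.03) and ssp from -0.20 to 0.04 (median -0.02). All 3 cas arrays lay above every ssp and every spretus array, by a narrow margin, while the other pairs of groups overlapped. Neither of these pairs passed limma's test: ssp minus cas was -0.21 ± 0.09 (adjusted p = 0.251) and spretus minus cas -0.14 ± 0.11 (adjusted p = 0.611). The highest value was on mus 8, the array of conflicting labels. Ssp against the average of dom, mus and cas was -0.13 ± 0.06 (adjusted p = 0.314), against a background of 0.097% of probes that passed. Trh missed the threshold in all 4 contrasts.

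Oxt had the widest spread of the members. In cas the ratio was -0.66, 0.56 and 0.34, so that a single group held both the lowest and the highest brain array. The spots of cas 1 were both low, at -0.46 and -0.85, and those of cas 2 both high, at 0.44 and 0.67. Dom ranged from 0.07 to 0.45 (median 0.27), ssp from -0.02 to 0.52 (median 0.24), mus from -0.27 to 0.25 (median -0.01), and spretus was at 0.12, 0.05 and 0.37. Mus minus dom was -0.28 ± 0.15 (95% interval -0.58 to 0.03, adjusted p = 0.601), where 0.223% of all probes passed. Within array set 1 it was -0.30 ± 0.11 (limma, adjusted p = 0.207). No contrast passed for Oxt. Its sign for cas turned with 1 array, from -0.284 without cas 2 to 0.323 without cas 1.

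The second Oxt probe differed from the first. Its means were -0.14 ± 0.23 in dom, -0.01 ± 0.21 in mus and -0.16 ± 0.28 in ssp (n = 6 each), -0.06 ± 0.13 in cas and 0.14 ± 0.09 in spretus (n = 3 each). All 3 spretus arrays lay above all 3 cas arrays (lowest 0.0730, highest 0.0510), and spretus minus cas was 0.19 ± 0.17 (limma, adjusted p = 0.689). On cas 1, where the first probe stood at -0.66, the second stood at 0.05. Over the 24 brain arrays, deviations of both probes from their group means correlated with r = -0.361 (permutation p = 0.0483, adjusted p = 0.27 over 28 pairs). No contrast passed for the second probe either. The first probe stands for the gene here because its spots agreed better.

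Hcrt was highest in spretus, at 0.08, 0.36 and 0.55. Cas was at -0.37, 0.31 and -0.03. Dom ranged from -0.04 to 0.35 (median 0.10), mus from -0.31 to 0.48 (median 0.11) and ssp from -0.34 to 0.35 (median 0.12). The spretus range overlapped that of every other group. Spretus against the musculus average was 0.26 ± 0.14 (95% interval -0.03 to 0.55, adjusted p = 0.312), and 3.95% of all probes passed there. Within array set 2, against mus, cas and ssp without dom, it was 0.23 ± 0.19 (limma, adjusted p = 0.533). The full contrast fell to 0.149 without spretus 3 and was 0.388 without spretus 1. Ghrh in the same contrast was 0.29 ± 0.11 (adjusted p = 0.132).

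Gal was highest in ssp, where it also varied most. The ssp arrays ran from -0.25 to 0.68 with a median of 0.23, dom from -0.19 to 0.23 (median 0.01) and mus from -0.28 to 0.24 (median 0.05). Cas was at 0.01, 0.16 and -0.10 and spretus at -0.03, 0.12 and 0.24. Ssp against the average of dom, mus and cas was 0.20 ± 0.10 (95% interval -0.0025 to 0.40, adjusted p = 0.326). It fell to 0.108 without ssp 4 and was 0.293 without ssp 5. The spots of the probe disagreed most on cas 3, where they read -0.76 and 0.57.

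Pmch and Tac1 were nearly flat. Pmch ranged from -0.24 to -0.05 in dom, -0.17 to -0.04 in mus and -0.24 to 0.10 in ssp, and was at -0.06 and -0.15 in cas, where cas 3 had no value, and at 0.06, 0.01 and -0.09 in spretus. Tac1 ranged from -0.17 to 0.13 in dom, -0.09 to -0.02 in mus and -0.08 to 0.10 in ssp, and was at 0.0027, -0.21 and -0.13 in cas and 0.16, -0.02 and 0.04 in spretus. All pairs of groups overlapped for Pmch. For Tac1 the lowest spretus array lay just above the highest mus array (-0.0203 against -0.0206), a pair that limma's test did not pass (0.11 ± 0.07, adjusted p = 0.407), and the other pairs overlapped. The largest contrast for Tac1 was spretus against the musculus average, 0.11 ± 0.06 (adjusted p = 0.348). For Pmch all 4 contrasts lay between -0.0017 and 0.099.

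**Figure D4:**
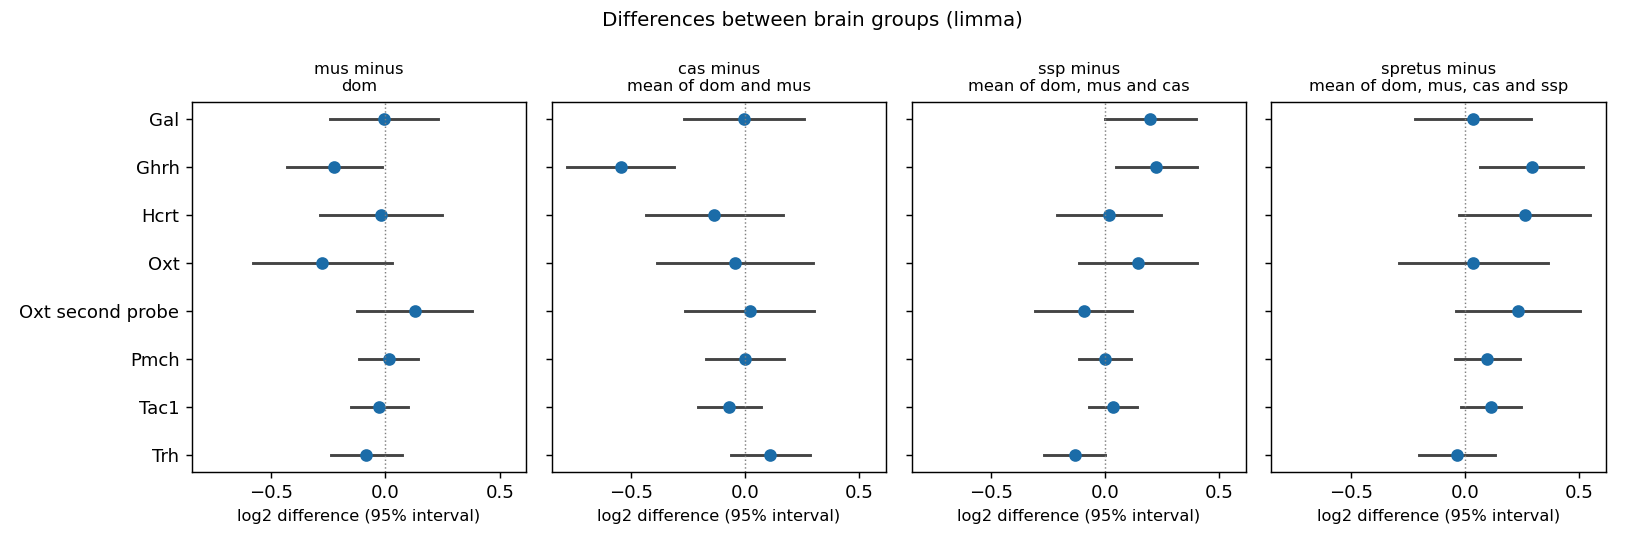
Log2 differences from limma for the 8 probes in the 4 contrasts of brain groups, with 95% intervals that are not adjusted for the number of probes. The Ghrh interval for cas (-0.78 to -0.31) lies farthest from 0, with an adjusted p of 0.057, and no interval of a Pmch or Tac1 probe lies wholly on 1 side of 0.

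Across the 4 contrasts 0 of the 7 genes passed limma's test in either direction. The median log2 difference of the members was -0.03 for mus minus dom, -0.05 for cas, 0.03 for ssp and 0.10 for spretus, against -0.0053, -0.0083, -0.0026 and 0.0155 over all probes. For spretus 6 of 7 genes lay above 0, with Trh (-0.04) as the exception. Before adjustment limma's p was under 0.05 for Ghrh in all 4 contrasts and for Trh in ssp, which is 5 of 28 tests, or 17.9%, against 14% of the tests of all probes. The intervals give the precision of the probe values. For Hcrt, mus minus dom was -0.02 with an interval of -0.29 to 0.25, and for Tac1 it was -0.03 with an interval of -0.15 to 0.10. The spots of the Tac1 probe did not repeat each other (r = -0.20), so its narrow interval need not bound the difference in Tac1 RNA.

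Against the C57BL6 pool, 1 member passed. The pool is a single reference, so this test leaves out its own spread, and the dyes were not balanced. The mean of the musculus groups was -0.11 ± 0.03 for Pmch (adjusted p = 0.0179), with 19 of 20 arrays of these groups below 0. Here 8.95% of all probes passed. The 2 spots of this probe correlated negatively over brain arrays (r = -0.289), and in liver/kidney the same probe averaged -0.110 over all 5 groups, with 20 of 23 arrays below 0. In testis the Pmch probe averaged 0.093 over all 5 groups, with 13 of 24 arrays above 0. Oxt was 0.14 ± 0.06 above the pool (adjusted p = 0.122) with 16 of 21 arrays above 0, and without cas 1 the value was 0.24 (adjusted p = 0.0028). Ghrh was 0.10 ± 0.04 above it (adjusted p = 0.113), and passed without mus 3 (0.13, adjusted p = 0.026) or without cas 3 (0.13, adjusted p = 0.0456). Gal, Hcrt, Tac1 and Trh missed the threshold.

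Covariation between animals was measured on deviations from group means over the 24 brain arrays. Of the 21 pairs of members, 0 passed after adjustment over the 21 pairs, 2 had an unadjusted permutation p of Pearson's r under 0.05, and 10 had a positive r. The median absolute r was 0.224, against 0.184 over all pairs of probes with a value on every brain array. An absolute r of at least 0.4 was reached by 4 pairs, or 19%, against 13.9% of all pairs of probes. These correlations share arrays, and Pmch entered with 23 of them.

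The strongest pair was Gal and Hcrt, with r = 0.547 (permutation p = 0.0107, adjusted p = 0.206) and rho = 0.498 (permutation p = 0.0238, adjusted p = 0.38). It was 0.584 without the 2 arrays farthest from the median of Gal, 0.691 within array set 1 and 0.546 within set 2. Without ssp 4, the array with the highest Gal value, r was 0.689 with an adjusted p of 0.034, the only run without 1 array in which a pair passed. Pmch and Tac1 followed with r = 0.538 (permutation p = 0.0196, adjusted p = 0.206) and rho = 0.477 (permutation p = 0.0543, adjusted p = 0.38). Without ssp 1 and ssp 4 this r fell to 0.386. It joins the pair of probes whose own spots correlated negatively in brain.

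Hcrt also correlated with Ghrh (r = 0.494, permutation p = 0.0587, adjusted p = 0.411; rho = 0.486) and with Oxt (r = 0.459, permutation p = 0.097, adjusted p = 0.509; rho = 0.304). Hcrt thus took part in 3 of the 4 strongest pairs. Without mus 3 and ssp 4 the r of Ghrh and Hcrt was 0.317, and within sets 1 and 2 it was 0.542 and 0.409. The r of Hcrt and Oxt was 0.393 within set 1 and 0.529 within set 2, and without cas 1 it fell to 0.265. The lowest pair was Gal and Pmch, with r = -0.378 (permutation p = 0.212), which was 0.000439 within set 1 and -0.911 within set 2, and ran from -0.635 to -0.208 in runs without 1 array.

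**Figure D5:**
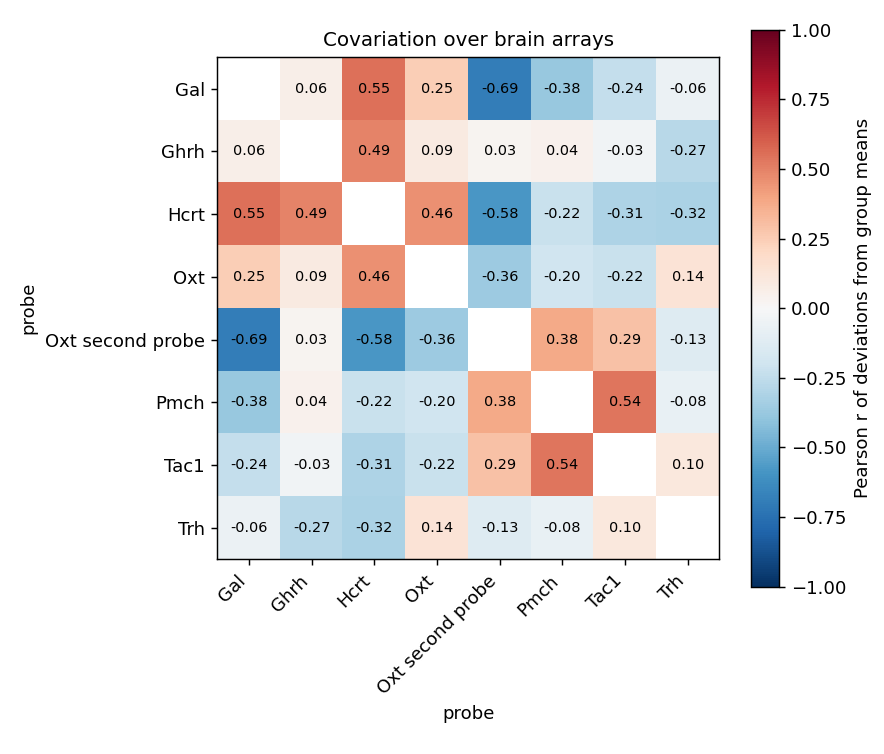
Pearson correlation of the 8 neuropeptide probes over 24 brain arrays (23 for Pmch), after the group mean was subtracted from each value. Hcrt gives 0.46 to 0.55 with Gal, Ghrh and Oxt, while the second Oxt probe gives negative values with Gal and Hcrt.

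The second Oxt probe ran against Gal and Hcrt. Its r was -0.695 with Gal (permutation p = 0.00192) and -0.584 with Hcrt (permutation p = 0.00372), each with an adjusted p of 0.0521 over 28 pairs. Without ssp 4 and ssp 5 the r with Gal was -0.521, and without mus 3 and ssp 5 the r with Hcrt was -0.333. The first Oxt probe gave 0.247 with Gal and 0.459 with Hcrt, so the 2 probes of the gene differed in sign.

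No member was among the 5 genes most like another. The probe most like Gal over brain arrays was that of St6gal1, a sialyltransferase (r = 0.858), followed by Fzd5, Adcy6, Traf4 and Elavl2. For Ghrh they were Wfikkn2 (r = 0.809), Cd55b, Zfp114, Marveld2 and Lta, and for Hcrt Ppp2r5d (r = 0.762), Sav1, Brca1, Mtus2 and Ocstamp. For Oxt they were Mug1 (r = 0.783), Ccl27a, Ankrd46, Slc22a7 and Aoc3. Those of the second Oxt probe were Rspo1 (r = 0.824), Moap1, Scn11a, Ino80c and Snap23. Pmch was followed by Ky (r = 0.782 over 23 arrays), Fam81a, Strn, C1ra and Hcn3, Tac1 by Sec22b (r = 0.723), Igkv4-72, Ypel5, Wwp2 and Spns2, and Trh by Snap29 (r = 0.815), Pus1, Atxn3, Atpsckmt and Mrpl24. The highest of about 19516 correlations is large by selection alone. Hcrt stood at place 376 for Gal, and Gal at place 296 for Hcrt.

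Of the other hypothalamic neuropeptides, 15 of 29 listed genes were tested, and 0 passed limma's test in the 4 contrasts, with 9 of 60 tests at an unadjusted p under 0.05, close to the 14% over all probes. Penk, the enkephalin precursor, which is also abundant in the striatum, had the largest difference. It was 0.78 ± 0.23 higher in mus than in dom (adjusted p = 0.14), with mus from 0.28 to 1.26 (median 0.84) and dom from -0.23 to 0.17 (median 0.05), so that these groups did not overlap. Within array set 1 it was 0.90 ± 0.14, with an adjusted p of 0.02 from limma. With the array set as a term it was 0.75 ± 0.24 and did not pass (limma, adjusted p = 0.166). Cartpt, a peptide of feeding and reward circuits, was -0.40 ± 0.12 in spretus against the musculus groups (adjusted p = 0.0506), and Npvf, a regulator of gonadotropin release, -0.41 ± 0.12 (adjusted p = 0.056). With the array set as a term, limma gave -0.38 ± 0.13 for Cartpt (adjusted p = 0.0996) and -0.26 ± 0.11 for Npvf (adjusted p = 0.163). For mus minus dom, Npvf passed limma's test with the set term (0.435, adjusted p = 0.0427) and within set 1 (0.505, adjusted p = 0.0374). For cas 4 of the 15 genes lay above 0, with a median of -0.12, against -0.01 over all probes. Penk (0.31 ± 0.09, adjusted p = 0.0321) and Cartpt (0.14 ± 0.04, adjusted p = 0.039) exceeded the pool in the musculus groups, where 8.95% of all probes passed.

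Of the receptors of the member peptides, 12 of 13 listed genes were tested, and 0 passed in the 4 contrasts, with 8 of 48 tests at an unadjusted p under 0.05, where all probes gave 14%. Hcrtr1, a hypocretin receptor, came nearest at 0.60 ± 0.17 for mus minus dom (adjusted p = 0.128). Ghrhr, the receptor of Ghrh, gave -0.30 ± 0.12 for cas (adjusted p = 0.343), and Oxtr 0.22 ± 0.09 for mus minus dom (adjusted p = 0.357). The Ghrhr difference for cas was near 0 with the array set as a term, at -0.05 ± 0.15. Within array set 2, cas minus mus was 0.04 ± 0.14 for Ghrhr. Tacr3, the neurokinin B receptor, lay below the pool in the musculus groups (-0.20 ± 0.05, adjusted p = 0.0144), where 8.95% of all probes passed.

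Genes of peptide processing and dense-core granules changed in spretus. Of 15 listed genes 11 were tested, and against the musculus groups 3 were lower and 1 was higher, where 3.95% of all probes passed. Their median was -0.22, against 0.02 over all probes. Chga, chromogranin A of the granule core, was -0.36, -0.38 and -0.46 in the spretus brains and ranged from -0.14 to 0.29 over the musculus groups, without overlap. Its difference was -0.45 ± 0.07 (adjusted p = 0.000507). Cpe, the carboxypeptidase that trims peptide precursors, was lower by a difference of -0.37 ± 0.09 (adjusted p = 0.0168), and Cadps2, a priming factor of granule release, by -0.35 ± 0.09 (adjusted p = 0.0356). Its paralogue Cadps was higher (0.39 ± 0.08, adjusted p = 0.00677). All 3 spretus arrays are in set 2, which holds no dom array. Within that set spretus was therefore set against the average of mus, cas and ssp. There 61 probes of the whole array passed, against 814 in the full contrast, and limma's test passed none of the 4. There the differences were -0.40 ± 0.08 for Chga (adjusted p = 0.0678), -0.29 ± 0.11 for Cpe (adjusted p = 0.226), -0.41 ± 0.10 for Cadps2 (adjusted p = 0.101) and 0.37 ± 0.09 for Cadps (adjusted p = 0.095). With the array set as a term, limma's adjusted p was 0.00255 for Chga, 0.0458 for Cpe, 0.0307 for Cadps2 and 0.0203 for Cadps. In the other 3 contrasts 0 of the 11 passed. Scg3, a granin, lay below the pool in the musculus groups (-0.15 ± 0.04, adjusted p = 0.0327), where 8.95% of all probes passed.

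Of 20 listed transcription factors and enzymes of the hypothalamus, 19 were tested, and 0 passed in the 4 contrasts, with 10 of 76 tests at an unadjusted p under 0.05 (14% over all probes). Against the pool Calcr (0.22 ± 0.05, adjusted p = 0.00532), Otp (0.19 ± 0.04, adjusted p = 0.00614) and Lhx9 (0.11 ± 0.03, adjusted p = 0.0173) were higher in the musculus groups and Isl1 was lower (-0.09 ± 0.03, adjusted p = 0.0374). In that test 8.95% of all probes passed. Otp is needed for the development of Oxt and Trh neurons, among others. Markers of other brain regions and cell types moved in few cases. In spretus Cux2 of the upper cortical layers was lower (-0.60 ± 0.15, adjusted p = 0.021), and Pitx3 (0.52 ± 0.13, adjusted p = 0.022) and En1 (0.56 ± 0.15, adjusted p = 0.0357) of midbrain dopamine neurons were higher. Within set 2, against mus, cas and ssp without dom, limma gave -0.65 ± 0.12 for Cux2 (adjusted p = 0.0597), 0.58 ± 0.19 for Pitx3 (adjusted p = 0.155) and 0.57 ± 0.18 for En1 (adjusted p = 0.151). With the array set as a term, limma's adjusted p was 0.0294 for Cux2, 0.0374 for Pitx3 and 0.0533 for En1. In ssp 2 of 4 blood markers tested were higher, the haemoglobin genes, where 0.097% of all probes passed. Alas2 (-0.18 ± 0.12) and Slc4a1 (-0.07 ± 0.06) lay below 0 and did not pass. Hbb-b2 was higher by 0.60 ± 0.10 (adjusted p = 0.0131). Its mean was 0.69 ± 0.34 (SD, n = 6) in ssp and also high in spretus, at 0.62 ± 0.12 (n = 3). For Hba-a1 the difference was 0.41 ± 0.08 (adjusted p = 0.0407). Within set 1 ssp was set against dom and mus, and within set 2 against mus and cas. Neither haemoglobin gene passed limma's test there, at 0.38 and 0.83 for Hbb-b2 (adjusted p = 0.20 and 0.258) and 0.44 and 0.50 for Hba-a1 (adjusted p = 0.221 and 0.392). Limma's adjusted p with the array set as a term was 0.02 for Hbb-b2 and 0.0221 for Hba-a1. No marker of neurons, glia, striatum, cerebellum, choroid plexus or pituitary passed in the 4 contrasts. Against the pool such markers did pass, so calls there were not confined to hypothalamic lists. Higher in the musculus groups were 3 of 10 cerebellar, 3 of 14 neuron, 1 of 14 glia, 1 of 8 striatal and 2 of 4 blood markers. Of the neuron markers 1 was lower. Cortex and hippocampus, thalamus, midbrain and hindbrain, choroid plexus and pituitary markers gave no call against the pool. The part of these markers in the values of the members was not tested.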

How the data were processed

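Each sample was a 2-colour array, with RNA of 1 male in channel 2 and the C57BL6 pool of the same tissue in channel 1, per the labels. The values are log ratios that the authors had processed and deposited, taken here as log2 because the base is not stated. How the arrays were scanned, corrected for background and normalised is not given in the sources. Single-channel signals were not analysed here, so signal over background is unknown and the number of arrays limits the precision. Of 46128 spots per array, 42947 to 44398 carried a value in brain. Each row of spots held neighbouring duplicate pairs, 22320 per array, and wherever the annotation lists both spots of a pair (16326 pairs) their identifiers were equal. Pairs were averaged and 1488 single spots dropped, which left 22089 probes, 15801 of them with 1 gene symbol, 294 with several and 5994 without a listed gene. Symbols were checked against RefSeq (GRCm38.p6), and 0 were updated. Each array was centred on its median.

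Groups came from the array titles. Linear models with 1 coefficient per group over all 24 brain arrays were fitted with limma 3.58.1 in R 4.3.3 (with data.table, version 1.17.8), for probes with at least 2 values in every group. P-values are two-sided, from eBayes, and Benjamini-Hochberg adjusted over 20621 probes, with a threshold of 0.05. The fit was tested on simulated data. Correlations use deviations from group means and two-sided permutation p-values from 100000 reshuffles within groups (Python 3.11.15, numpy 2.4.6, pandas 2.3.3, scipy 1.17.1), adjusted over 21 pairs, or 28 with the second Oxt probe. Figures were drawn with matplotlib 3.10.9. The alternatives were no centring, quantile normalisation, array weights, single spots, complete probes, the conflicting array, only the groups compared, the animal number as a block, array sets and leaving out each array.

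The 7 members and all gene lists were chosen with earlier results of these data known. A gene with several probes is represented by the one whose spots correlate best in brain. Named besides the members are the 5 genes most like each, leaving aside RIKEN clones, Gm models, LOC names and expressed sequences, and up to 3 changed genes per list and contrast with the smallest p. Cadps2 and Isl1, which lie beyond these 3, and list genes that missed the threshold, were picked after their values were seen. No sequences or coordinates are given.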

Additional observations from a re-analysis of the deposited data

Results flagged for a closer look

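Ghrh in brain stood on opposite sides of the C57BL6 pool in different groups. Every dom, ssp and spretus array was above 0 and every cas array below it. The means exceeded that of cas by 0.66 in dom, by 0.71 in spretus and by 0.59 in ssp. The limma tests of these pairs, over all probes, gave adjusted p-values of 0.103, 0.013 and 0.0528.

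Arrays far from the rest of their group were looked for in 72 sets of arrays, 1 per probe, tissue and group of 6, by the gap to the nearest array as a share of the group's range. Of these 6 stood out, none of them in brain, and chance gives about 1 in 20. In liver/kidney they were Gal on mus 7 at 0.99, Trh on dom 1 at -0.32 and Trh on ssp 5 at -0.25. In testis they were Hcrt on ssp 2 at -0.86, Pmch on ssp 1 at 0.12 and Tac1 on mus 7 at 0.17.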

How the results depend on the processing

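Of the members' values, Ghrh among the 5 groups kept its call in 29 of 34 alternatives. Of these, 24 were runs without 1 array, and 23 of them kept it. Among the rest it was lost on the first spot alone, on the second spot alone, with the replicate block and without cas. Ghrh in spretus minus cas kept its call in 21 of 24 runs without 1 array (0.592 to 0.824) and in 5 of 10 other alternatives. It lost the call on the first spot alone (0.53), with only these groups (0.71), with the replicate block (0.71), with the array set as a term (0.59) and within set 2 (0.59). Pmch against the pool kept its call in all 24 alternatives run, 22 of them runs without 1 array. Single spots, array weights and array sets were not tried against the pool. No called value changed sign, and among all 1583 alternative values of the members 81 changed sign, all of them past the threshold in neither setting. Animal numbers did not pair the arrays: over all probes, same-numbered arrays of different groups correlated with a median r of -0.00855 (27 pairs), against -0.000324 for other numbers (198 pairs). With the replicate block, Ghrh had an adjusted p of 0.155 among the groups and 0.0673 for spretus minus cas, and 0, 0, 0 and 323 probes passed for mus minus dom, cas, ssp and spretus, and 21 among the groups. Other values gained a call: Ghrh for spretus with array weights (0.29, adjusted p = 0.0272) and against the pool with quantile normalisation (0.14, adjusted p = 0.0169). The cause of these changes was not tested.

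Counts of probes over the whole array moved more. With 46, 2, 20 and 814 probes for mus minus dom, cas, ssp and spretus and 677 among the groups as reported, quantile normalisation gave 322, 0 and 2 for the first 3. Array weights gave 383, 4, 4, 3187 and 3306. The first spot alone gave 6, 10, 13, 387 and 272, and the second spot alone 11 for mus minus dom, 5 for cas, 414 for spretus and 241 among the groups. Without centring cas had 0. Without the conflicting array the first 3 contrasts had 16, 0 and 12, and with only the groups compared 29, 0 and 12. The array set as a term gave 95 for mus minus dom and 1026 among the groups, set 1 alone 173 for mus minus dom and 1 for ssp, and set 2 alone 0 for cas, 2 for ssp and 61 for spretus. Within a set each contrast took only the groups present there, so set 1 left out cas and set 2 left out dom. Without cas 1589 probes differed among the other 4 groups. Runs without 1 array gave 3 to 174 for mus minus dom, 0 to 946 for cas, 10 to 297 for ssp, 361 to 1397 for spretus, 265 to 1830 among the groups, 1303 to 2053 against the pool, and 0 to 1 pairs of members that correlated.

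The F test without cas, the runs without 1 array for correlations and duplicate spots, the array sets for list genes and all alternatives for spretus minus cas were chosen after seeing the data. Cas and spretus, with 3 arrays each, gave the least precise values.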

Other observations

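In the other tissues some member probes stood on 1 side of the pool on nearly every array. In liver/kidney Gal was above 0 on 23 of 24 arrays, with a mean of 0.41 ± 0.35 (SD, n = 24) and a highest value of 1.58 in cas, and its 2 spots agreed there (r = 0.814). Oxt was above 0 on 23 of 24 liver/kidney arrays (mean 0.33 ± 0.28), while the second Oxt probe was above 0 on 7 of 23 (mean -0.04 ± 0.10). In testis the Oxt means were 0.30 ± 0.28 in dom and -0.13 ± 0.15 in mus (n = 6 each), a difference in the direction this probe had in brain. The second Oxt probe went the other way, at 0.01 ± 0.26 in dom and 0.08 ± 0.15 in mus testis. In brain too its mean was higher in mus than in dom. Pmch reached 1.38 on 1 spretus testis array, where the other two were at 0.04 and 0.16. None of these values was tested.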
